A study of Mus musculus with 12 samples.

Results

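The genes described here carry out MHC class I antigen presentation in mouse bone marrow-derived macrophages (BMDMs): the class I heavy chains H2-K1 and H2-D1, the light chain B2m, the peptide transporter subunits Tap1 and Tap2, the loading factor Tapbp, the immunoproteasome subunits Psmb8, Psmb9 and Psmb10, and the transactivator Nlrc5. They were taken by symbol, and each of the 10 had 1 row among the 23361 gene symbols of the tables. All 10 rows passed the filter on low values, which kept 11191 of 23847 rows. RNA-seq was used to ask how earlier IL-4 exposure bears on the response of BMDMs to LPS, a bacterial cell wall component sensed through TLR4. All cells came from wild type C57BL/6 mice aged 8 to 12 weeks and were differentiated for 6 days in a macrophage growth factor medium (L929 cell supernatant). The control group was left untreated, the IL-4 group received 20 ng/ml IL-4 for 24 h, the LPS group received LPS for 3 h at 100 ng/ml by the labels (the study's methods give the dose in another unit), and the IL-4+LPS group received the same IL-4 treatment and then the same LPS treatment. Each group held 3 samples, numbered 1 to 3. The study describes these data as coming from separate animals in more than 1 experiment, but no label tied a sample to an animal, experiment or culture, so p-values measure the spread between these samples.

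Class I molecules show peptides from inside the cell to cytotoxic T cells. The proteasome cuts proteins into peptides, the TAP transporter carries them into the endoplasmic reticulum, tapasin (Tapbp) bridges the transporter and the empty heavy chain, and the filled heavy chain leaves with B2m. Interferons and inflammatory signals replace the constitutive catalytic subunits of the proteasome with immunoproteasome subunits, and Nlrc5 is the transactivator that drives many class I genes.

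The values were FPKM (fragments per kilobase of transcript, relative to the mapped fragments of the sample) computed by the authors, which is a scale per length, so levels of different genes can be compared. Differences are given on the log2(FPKM + 1) scale with their standard error (SE), from limma fitted over all 12 samples, and a gene was called higher or lower at an adjusted p under 0.05 over all 11191 rows. FPKM totals were 457583 to 495025 per sample, and relative depth ran from 0.991 to 3.3 with control replicate 1 set to 1. Relative depth was 0.991 to 1.03 in the samples numbered 1 and 1.266 to 3.3 in the rest. The 4 samples numbered 1 stood apart from the rest: within a group, r averaged 0.9589 for pairs with replicate 1 and 0.9765 for replicates 2 and 3. LPS moved the median row by -0.44 (log2) against control and by -0.41 after IL-4. Of the rows called in LPS minus control, 22.6% were higher, against 42.6% after scaling each sample to its median, and in IL-4+LPS minus IL-4 the share was 20.6% against 43.2%. All 6 macrophage markers (Csf1r, Cd68, Itgam, Mertk, Emr1, Lyz2) were detected, with summed FPKM of 19160 to 20530 in control, 7556 to 7770 with IL-4, 15380 to 16610 with LPS and 6551 to 6935 with both. Lyz2 carried most of these sums, at 15345 to 16507 FPKM in control and 4734 to 5051 with IL-4, and with IL-4 5 of the 6 were called lower, all but Cd68. The 6 dendritic cell markers summed to 26.98 to 43.76 FPKM in control, 298.6 to 345.4 with IL-4, 22.61 to 34.75 with LPS and 300.4 to 365.8 with both, nearly all of it Itgax, while Flt3, Clec9a and Xcr1 stayed under 1 FPKM in every sample. Zbtb46 stood at 0 to 0.135, 0.166 to 0.474, 0.487 to 0.562 and 1.94 to 2.83 FPKM in the same order of groups. Ccr7 lay between 0.0947 and 1.39 FPKM in all samples. The 5 neutrophil and precursor markers found summed to 317.9 to 840.6 FPKM in control, 214.6 to 398.1 with IL-4, 499.2 to 995.5 with LPS and 423 to 828.1 with both. Of 7 T and NK cell markers, 6 stayed under 1 FPKM in every sample, as did 4 of 5 B cell markers and 5 of 6 fibroblast markers. The other three were Cd4, at 9.62 to 11.7 FPKM in control, 0.495 to 0.810 with IL-4, 6.07 to 6.58 with LPS and 0.277 to 0.409 with both, Cd79b, at 2.01 to 3.22, 0.589 to 1.08, 0.486 to 0.934 and 2.11 to 4.28 FPKM in the same order, and Pdgfrb, at no more than 0.0678 FPKM without LPS, 2.24 to 3.47 with LPS and 1.77 to 2.85 with both. The part of these shifts in the results was not tested, and in bulk samples fewer cells of a type and less RNA per cell cannot be told apart.

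The genes lie on 3 chromosomes (mm10). Chromosome 17 holds H2-K1 (33996012 to 34000333, minus strand), Tapbp (33919478 to 33929290), Psmb9 (34182099 to 34187330, minus strand), Tap1 (34187556 to 34197225), Psmb8 (34198195 to 34201454), Tap2 (34204479 to 34216321) and H2-D1 (35263094 to 35267497). B2m is on chromosome 2 (122147687 to 122153082), and chromosome 8 holds Nlrc5 (94472763 to 94527272) and Psmb10 (105935728 to 105938392, minus strand). Psmb9, Tap1, Psmb8 and Tap2 therefore stand side by side within 34223 bases, and the starts of Psmb9 and Tap1 point away from each other 226 bases apart. RefSeq promoter windows (GRCm38.p6, 250 bases before to 50 after the start) were matched for 8 of the 10, all but Tap2 and Nlrc5. The window of the Psmb9 and Tap1 starts is shown because it holds both starts, read on the plus strand, with the first 10 transcribed bases of each gene in capitals, Psmb9 running leftward and Tap1 rightward.
Psmb9 and Tap1, chr17:34187306-34187605: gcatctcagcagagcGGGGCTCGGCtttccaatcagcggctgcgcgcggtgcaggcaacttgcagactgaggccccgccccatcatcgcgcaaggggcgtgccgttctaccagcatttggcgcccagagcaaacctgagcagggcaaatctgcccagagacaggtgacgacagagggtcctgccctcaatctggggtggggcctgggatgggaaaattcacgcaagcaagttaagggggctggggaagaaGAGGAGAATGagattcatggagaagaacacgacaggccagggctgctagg

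Windows of both heavy chains, of B2m and of Psmb10 are shown because these are the genes whose calls with IL-4 or LPS are set against each other. Capitals mark matches, on either strand, to an interferon-stimulated element core (GAAANNGAA, or GAANNGAAA, a spacing added after the sequences were seen), an NF-kB site (GGGNNTTCC), or a STAT6 site (TTCNNNNGAA). The letters CCAAT were searched too.
H2-K1, chr17:34000284-34000583, minus strand: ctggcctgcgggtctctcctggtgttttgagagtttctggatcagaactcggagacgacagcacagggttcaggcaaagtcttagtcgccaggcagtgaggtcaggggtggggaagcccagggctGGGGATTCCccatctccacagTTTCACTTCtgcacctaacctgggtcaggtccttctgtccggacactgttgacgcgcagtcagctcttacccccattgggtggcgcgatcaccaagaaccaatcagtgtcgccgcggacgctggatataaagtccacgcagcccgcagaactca
H2-D1, chr17:35262844-35263143, plus strand: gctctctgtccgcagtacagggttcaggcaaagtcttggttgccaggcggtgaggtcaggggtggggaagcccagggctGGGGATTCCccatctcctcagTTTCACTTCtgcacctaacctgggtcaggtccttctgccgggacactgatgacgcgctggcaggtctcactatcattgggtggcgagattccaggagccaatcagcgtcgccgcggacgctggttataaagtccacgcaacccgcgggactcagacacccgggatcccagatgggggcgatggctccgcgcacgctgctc
B2m, chr2:122147437-122147736, plus strand: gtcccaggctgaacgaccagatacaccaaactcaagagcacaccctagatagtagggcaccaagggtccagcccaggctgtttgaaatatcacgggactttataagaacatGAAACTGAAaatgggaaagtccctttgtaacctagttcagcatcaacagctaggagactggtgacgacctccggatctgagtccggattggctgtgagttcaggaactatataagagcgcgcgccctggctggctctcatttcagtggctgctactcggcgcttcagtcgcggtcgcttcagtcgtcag
Psmb10, chr8:105938343-105938642, minus strand: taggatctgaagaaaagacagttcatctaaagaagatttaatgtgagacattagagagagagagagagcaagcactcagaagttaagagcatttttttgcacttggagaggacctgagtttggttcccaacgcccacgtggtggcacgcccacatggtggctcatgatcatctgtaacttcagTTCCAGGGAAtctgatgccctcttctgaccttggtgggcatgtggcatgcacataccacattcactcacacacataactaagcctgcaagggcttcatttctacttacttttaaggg

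H2-K1 and H2-D1 shared a run of 47 bases that holds the NF-kB match, followed in both by the match to the second interferon element spacing. The NF-kB match began at position -125 from the H2-K1 start and -171 from the H2-D1 start. B2m held the first spacing from position -139, and Psmb10 held the STAT6 letters from position -67. The windows of Tap1, Tapbp, Psmb8 and Psmb9, which were also called higher with LPS, held none of these interferon element, NF-kB or STAT6 letters. Of all 27025 promoters in the table, 8.57% held GAAANNGAA, 7.56% GAANNGAAA, 5.72% GGGNNTTCC, 6.99% TTCNNNNGAA and 37.9% CCAAT. A match is a description of the letters and says nothing of binding.

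After LPS alone, 8 of the 10 genes were called higher and none lower, and 10 were called higher with median scaling and 7 with quantile normalization. Over all rows, 16.9% were called higher and 57.7% lower on the FPKM as given. With median scaling 3130 of 11191 rows were higher and 4218 lower, and with quantile normalization 2903 and 4326. The median log2 difference of the 10 genes was 1.02, beside -0.44 over all rows. After LPS on IL-4-pretreated cells, 9 of the 10 were called higher and none lower (10 with median scaling, 7 with quantile normalization). Here 15% of rows were called higher and 57.9% lower, and the median of the genes was 0.95. Over all rows, median scaling gave 2863 higher and 3759 lower, and quantile normalization 2461 and 4173. With IL-4 alone, 3 were called higher (16% of rows) and 2 lower (21% of rows), with a median of 0.01 beside -0.05 over all rows. The lower count is near the share over all rows. Of these calls, that of Tap1 (lower) was lost in 12 of 22 alternatives and that of Tapbp (higher) in 4. Between IL-4+LPS and LPS, 3 were called higher (15% of rows) and none lower (15.8% of rows). The interaction, which is the LPS difference after IL-4 minus the LPS difference without it, was called positive in 1 gene (4.58% of rows) and negative in 1 (4.63% of rows). LPS minus control and IL-4 minus control share the control samples, and the interaction uses all 4 groups, so these counts are not independent of each other.

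**Figure D1:**
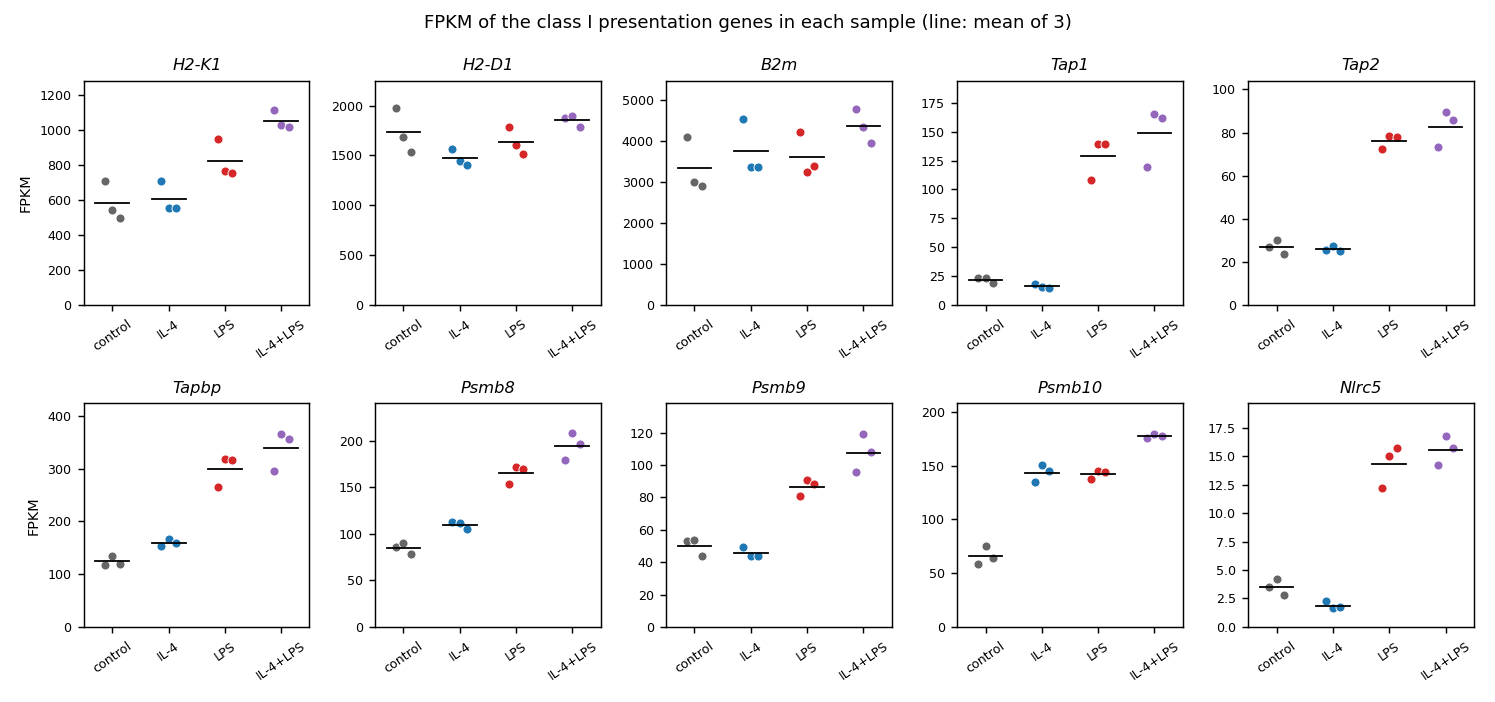
FPKM (y axis, linear from 0, own scale per gene) of each class I presentation gene by group (x axis), with 1 point per sample and a line at the mean of 3. The LPS samples of Tap1, Tap2, Tapbp, Nlrc5 and the 3 immunoproteasome genes lie above every sample without LPS, except for Psmb10, whose IL-4 samples reach the LPS samples, while control and LPS samples of H2-D1 and of B2m overlap.

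The heavy chains were among the most abundant transcripts. On the FPKM as given, only H2-K1 was called higher with LPS alone, and their responses were not tested against each other. H2-K1, the K locus heavy chain, ranked 88 of 11191 rows by control mean and H2-D1, the D locus heavy chain, ranked 26. H2-K1 stood at 707, 541 and 496 FPKM in control and at 709, 556 and 554 FPKM in IL-4 samples. It stood at 947, 767 and 755 FPKM in LPS and at 1112, 1028 and 1018 FPKM in IL-4+LPS samples. Every LPS and IL-4+LPS sample was above every sample without LPS, and replicate 1 was the highest of each group. H2-K1 rose with LPS by 0.51 ± 0.15 (log2, SE; adjusted p = 0.00879, limma) and by 0.80 ± 0.15 after IL-4 (adjusted p = 0.000568, limma), or 1.42-fold and 1.74-fold in mean FPKM. The first of these calls was lost with quantile normalization (adjusted p = 0.194, over alternatives 4.68e-05 to 0.194). In the order control, IL-4, LPS, IL-4+LPS, only the step from IL-4 to LPS passed the test (adjusted p = 0.0185, limma), and that from LPS to IL-4+LPS was 0.36 ± 0.15 (adjusted p = 0.0884, limma, over alternatives 0.000586 to 0.282), although the samples did not overlap.

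H2-D1 was not called with LPS alone on the FPKM as given. It stood at 1979, 1681 and 1534 FPKM in control and at 1567, 1446 and 1408 FPKM in IL-4 samples. It stood at 1784, 1605 and 1519 FPKM in LPS and at 1881, 1902 and 1783 FPKM in IL-4+LPS samples. Control and LPS samples overlapped, and the IL-4 samples had the lowest mean. The LPS difference of H2-D1 was -0.08 ± 0.10 (adjusted p = 0.497, limma; 95% interval -0.30 to 0.14), and with median scaling it was 0.34 and called higher (adjusted p = 0.0212, over alternatives 0.0212 to 0.86). After IL-4, H2-D1 rose with LPS by 0.33 ± 0.10 (adjusted p = 0.0111, limma), a call lost with quantile normalization (adjusted p = 0.126, over alternatives 0.000187 to 0.126). In the order IL-4, LPS, control, IL-4+LPS, no neighbours differed beyond their spread. H2-D1 shared 14.3% and H2-K1 8.79% of their 50-base words with other genes, so reads from related class I genes could be split between them.

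B2m, the light chain common to class I molecules, was the most abundant of the 10 genes, ranking 12 of 11191 rows. It stood at 4086, 2995 and 2903 FPKM in control and at 4537, 3368 and 3373 FPKM in IL-4 samples. It stood at 4225, 3238 and 3396 FPKM in LPS and at 4787, 4345 and 3959.6 FPKM in IL-4+LPS samples. Replicate 1 was highest in each group, and every group overlapped with control. The LPS difference of B2m was 0.13 ± 0.17 (adjusted p = 0.499, limma; 95% interval -0.24 to 0.50), and with median scaling it was 0.54 and called higher (adjusted p = 0.021, over alternatives 0.021 to 0.956). After IL-4 the LPS difference of B2m was 0.23 ± 0.17 (adjusted p = 0.243, limma), and median scaling gave 0.64 (adjusted p = 0.0102, over alternatives 0.00249 to 0.618). In the order control, LPS, IL-4, IL-4+LPS, no neighbours differed beyond their spread, but the ends did (0.40 ± 0.17, adjusted p = 0.0477, limma).

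The ratio of heavy to light chain within each sample does not depend on a scaling factor applied to the sample. The H2-K1 to B2m ratio averaged -2.52 (log2) in control, -2.63 with IL-4, -2.14 with LPS and -2.05 with both, with SDs of 0.042 to 0.077. LPS raised this ratio by 0.48 (log2), or 1.40-fold (exact permutation test within IL-4 strata, two-sided p = 0.005, adjusted over 12 tests 0.01), where 0.005 is the smallest p that the 400 arrangements allow. The H2-D1 to B2m ratio averaged -0.93 (log2) in control, -1.34 with IL-4, -1.14 with LPS and -1.23 with both, with SDs of 0.10 to 0.17. The LPS effect on it was -0.05 (exact permutation p = 0.59, adjusted 0.644), the mean of -0.21 without IL-4 and 0.11 with it. The IL-4 effect was -0.25 (exact permutation p = 0.025, adjusted 0.0375), the mean of -0.40 without LPS, where control and IL-4 samples did not overlap, and -0.09 with LPS, where LPS and IL-4+LPS samples did. Whether these effects differed with the other agent was not tested.

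Tap1 and Tap2, the paired subunits of the peptide transporter, rose with LPS by different amounts. Tap1 stood at 23.2, 22.98 and 18.4 FPKM in control and at 17.7, 15.0 and 14.3 FPKM in IL-4 samples. It stood at 108, 139 and 139 FPKM in LPS and at 119, 166 and 162 FPKM in IL-4+LPS samples. Samples with LPS lay far above those without, every IL-4 sample lay below every control sample, and LPS and IL-4+LPS samples overlapped. Tap1 rose with LPS by 2.52 ± 0.15 (adjusted p = 1.97e-07, limma, 5.98-fold in mean FPKM) and by 3.16 ± 0.15 after IL-4 (adjusted p = 4.76e-08, limma, 9.50-fold), and both calls held in all 22 alternatives. With IL-4 alone Tap1 fell by 0.43 ± 0.15 on the log2 scale (adjusted p = 0.0489, limma), a call that was lost in 12 of 22 alternatives (adjusted p from 0.00725 to 0.152). These 12 included median scaling and leaving out any of 8 samples, all but control replicate 3 and replicate 1 of the other groups. The interaction of Tap1 was 0.63 ± 0.22 (adjusted p = 0.102, limma), and IL-4+LPS minus LPS was 0.20 ± 0.15 (adjusted p = 0.367, limma).

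Tap2 stood at 27.0, 29.9 and 23.5 FPKM in control and at 25.4, 27.4 and 24.8 FPKM in IL-4 samples. It stood at 72.2, 78.6 and 77.9 FPKM in LPS and at 73.2, 89.5 and 85.6 FPKM in IL-4+LPS samples. IL-4 samples sat inside the control range, and samples with LPS were all above those without. Tap2 rose with LPS by 1.48 ± 0.10 (adjusted p = 3.57e-07, limma, 2.85-fold) and by 1.64 ± 0.10 after IL-4 (adjusted p = 2.13e-07, limma, 3.20-fold). The IL-4 difference of Tap2 was -0.04 (95% interval -0.26 to 0.18; adjusted p = 0.78, limma), and IL-4+LPS minus LPS was 0.11 (95% interval -0.11 to 0.33; adjusted p = 0.43, limma). Tap1 was below Tap2 in every sample without LPS and above it in every sample with LPS. The Tap1 to Tap2 ratio averaged -0.31 (log2) in control, -0.73 with IL-4, 0.75 with LPS and 0.84 with both, and the LPS effect on it was 1.31, or 2.49-fold (exact permutation p = 0.005, adjusted 0.01). The IL-4 effect on this ratio was -0.16 (exact permutation p = 0.18, adjusted 0.216), the mean of -0.41 without LPS and 0.09 with it. For this ratio control and IL-4 samples did not overlap, and LPS and IL-4+LPS samples did.

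Tapbp, or tapasin, responded to both agents. It stood at 118, 135 and 119.9 FPKM in control and at 153, 167 and 159 FPKM in IL-4 samples. It stood at 266, 318 and 316 FPKM in LPS and at 295, 366 and 356 FPKM in IL-4+LPS samples. The lowest value of each group was replicate 1, control and IL-4 samples did not overlap, and LPS and IL-4+LPS samples did. Tapbp rose with IL-4 by 0.36 ± 0.10 (adjusted p = 0.0189, limma, 1.28-fold), a call lost without control replicate 1 or 3 or without IL-4 replicate 2 or 3 (adjusted p from 0.0526 to 0.0659, and over all alternatives from 0.000946). Tapbp rose with LPS by 1.26 ± 0.10 (adjusted p = 1.41e-06, limma, 2.41-fold) and by 1.08 ± 0.10 after IL-4 (adjusted p = 5.41e-06, limma, 2.12-fold). The order was control, IL-4, LPS, then IL-4+LPS, and only the last pair did not differ beyond their spread (0.17 ± 0.10, adjusted p = 0.234, limma). Exons of Tapbp overlapped those of other annotated genes over 29% of their bases, those of Tap2 over 18.5% and those of Psmb8 over 14.7%, and the libraries did not mark strand.

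The 3 immunoproteasome subunits shared the rise with LPS and differed in their response to IL-4. Psmb8, which replaces Psmb5, stood at 86.4, 90.2 and 78.9 FPKM in control and at 112, 111 and 105 FPKM in IL-4 samples. It stood at 154, 172 and 169 FPKM in LPS and at 179, 208 and 196 FPKM in IL-4+LPS samples. The 4 groups did not overlap in the order control, IL-4, LPS, IL-4+LPS. Psmb8 rose with LPS by 0.95 ± 0.08 (adjusted p = 1.48e-06, limma, 1.94-fold), by 0.82 ± 0.08 after IL-4 (adjusted p = 5.05e-06, limma, 1.78-fold) and with IL-4 by 0.36 ± 0.08 (adjusted p = 0.00463, limma, 1.29-fold). IL-4+LPS was above LPS by 0.23 ± 0.08 (adjusted p = 0.0423, limma), a call lost in 11 of 22 alternatives (adjusted p from 0.0154 to 0.144), among them leaving out any of 7 samples (each LPS sample, and replicates 2 and 3 of IL-4 and of IL-4+LPS).

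Psmb9, which replaces Psmb6 and shares its promoter region with Tap1, stood at 53.1, 53.7 and 43.6 FPKM in control and at 49.3, 43.8 and 43.5 FPKM in IL-4 samples. It stood at 81.1, 90.6 and 88.2 FPKM in LPS and at 95.6, 119 and 108 FPKM in IL-4+LPS samples. Control and IL-4 samples overlapped, and LPS and IL-4+LPS samples did not. Psmb9 rose with LPS by 0.78 ± 0.10 (adjusted p = 5.36e-05, limma, 1.73-fold) and by 1.22 ± 0.10 after IL-4 (adjusted p = 2.56e-06, limma, 2.36-fold), beside 5.98-fold and 9.50-fold for its neighbour Tap1. The IL-4 difference of Psmb9 was -0.13 ± 0.10 (adjusted p = 0.359, limma). IL-4+LPS was above LPS by 0.31 ± 0.10 (adjusted p = 0.0472, limma), a call lost in 15 of 22 alternatives (adjusted p from 0.019 to 0.166), among them leaving out any of 9 samples, all but control replicate 3 and replicate 1 of IL-4 and of IL-4+LPS. The loci of Psmb9 and Tap1 in the files do not overlap. In GENCODE vM21, where Psmb9 reaches 34187764, their exons overlapped over 5.79% of the Psmb9 bases and 3.87% of the Tap1 bases.

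Psmb10, which replaces Psmb7, was the gene with the strongest response to IL-4 among the 10. It stood at 58.9, 75.4 and 64.3 FPKM in control and at 135, 151 and 145 FPKM in IL-4 samples. It stood at 137, 145 and 144 FPKM in LPS and at 176, 179.5 and 177 FPKM in IL-4+LPS samples. IL-4 and LPS samples overlapped each other, both lay above control, and the IL-4+LPS samples lay above both. Psmb10 rose with IL-4 by 1.11 ± 0.08 (adjusted p = 4.65e-06, limma, 2.17-fold) and with LPS by 1.10 ± 0.08 (adjusted p = 9.28e-07, limma, 2.15-fold), and LPS minus IL-4 was -0.01 (95% interval -0.20 to 0.17; adjusted p = 0.902, limma). After IL-4 the LPS rise of Psmb10 was 0.31 ± 0.08 (adjusted p = 0.00726, limma, 1.24-fold), a call lost with quantile normalization (adjusted p = 0.0773, over alternatives 1.73e-05 to 0.0773). The interaction of Psmb10 was -0.79 ± 0.12 (adjusted p = 0.0024, limma) and was called in all 20 alternatives (adjusted p from 0.000692 to 0.00943). The IL-4 difference of Psmb10 was above that of 97.2% of all rows. Both agents together left Psmb10 at 177.5 ± 1.87 FPKM (SD, n = 3), above LPS by 0.32 ± 0.08 (adjusted p = 0.0154, limma), and quantile normalization gave an adjusted p of 0.052 (over alternatives 0.003 to 0.052).

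**Figure D2:**
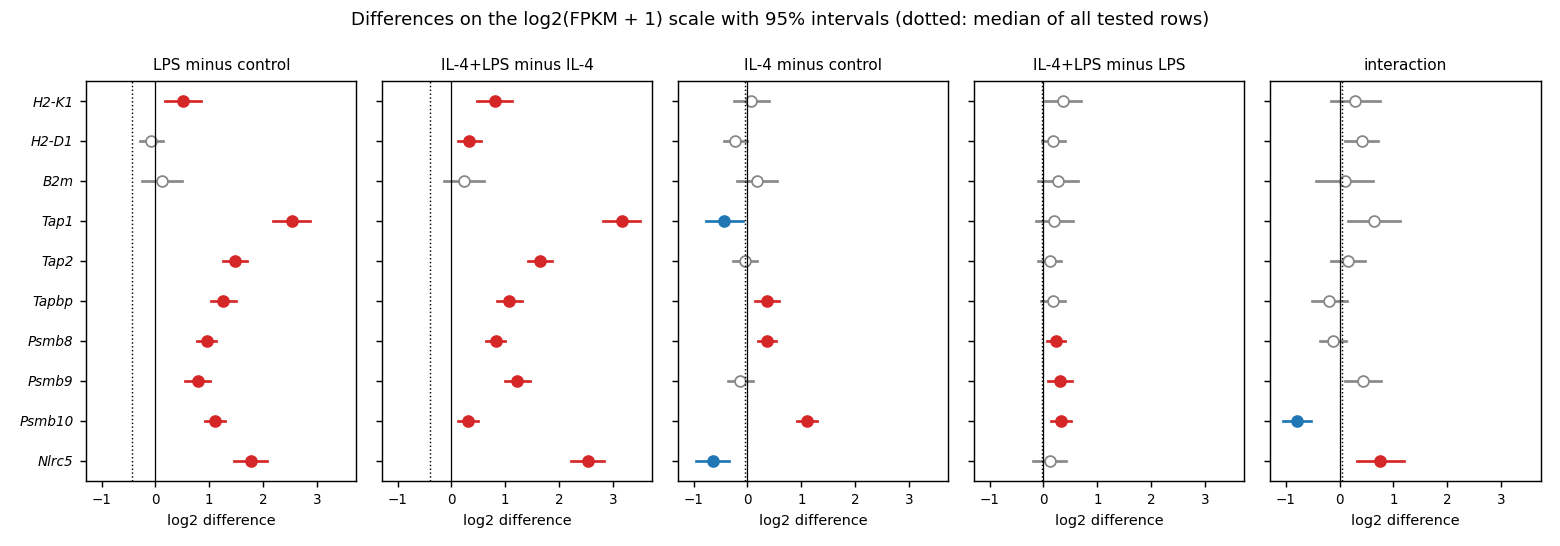
Differences on the log2(FPKM + 1) scale (x axis, same range in each panel) for each gene (y axis) in 4 comparisons and the interaction, with 95% intervals from limma, red filled where called higher, blue filled where called lower and open where not called, and a dotted line at the median of all tested rows. With LPS, H2-D1 and B2m are open in the first panel and were called higher with median scaling, and in the interaction Psmb10 (-0.79) lies left and Nlrc5 (0.76) right of 0.

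The immunoproteasome subunits were set against the constitutive subunits that they replace. Psmb5, Psmb6 and Psmb7 carry the catalytic sites of the standard proteasome. Psmb6 rose with LPS (0.36, adjusted p = 0.0255, limma; not called with quantile normalization, 0.20) and with IL-4 (0.62, adjusted p = 0.0035, limma), while the LPS difference was -0.05 for Psmb5 (adjusted p = 0.835, limma) and 0.17 for Psmb7 (adjusted p = 0.0885, limma; 0.58 and called higher with median scaling). With IL-4, Psmb5 rose by 0.53 (adjusted p = 0.0493, limma; not called with either other scaling), and the Psmb7 difference was 0.22 (adjusted p = 0.059, limma). The Psmb8 to Psmb5 ratio averaged 0.01 (log2) in control, -0.15 with IL-4, 1.02 with LPS and 0.77 with both. LPS raised it by 0.96, or 1.95-fold (exact permutation p = 0.005, adjusted 0.01), and the IL-4 effect was -0.21 (exact permutation p = 0.13, adjusted 0.173). The Psmb9 to Psmb6 ratio averaged -1.37 in control, -2.13 with IL-4, -0.94 with LPS and -1.42 with both. LPS raised it by 0.57 (exact permutation p = 0.005, adjusted 0.01) and IL-4 lowered it to 0.651 of its value (log2 -0.62, exact permutation p = 0.005, adjusted 0.01). The Psmb10 to Psmb7 ratio averaged -0.56 in control, 0.34 with IL-4, 0.38 with LPS and 0.53 with both, and rose with LPS by 0.57 (exact permutation p = 0.005, adjusted 0.01) and with IL-4 by 0.52 (exact permutation p = 0.01, adjusted 0.0171). IL-4 thus moved the Psmb9 and Psmb10 ratios in opposite directions. Its effect on the Psmb9 ratio was -0.76 without LPS and -0.48 with it, and on the Psmb10 ratio 0.90 and 0.15. The Psmb10 ratios of LPS and IL-4+LPS samples overlapped. The LPS effect on the Psmb10 ratio was 0.94 without IL-4 and 0.19 with it.

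**Figure D3:**
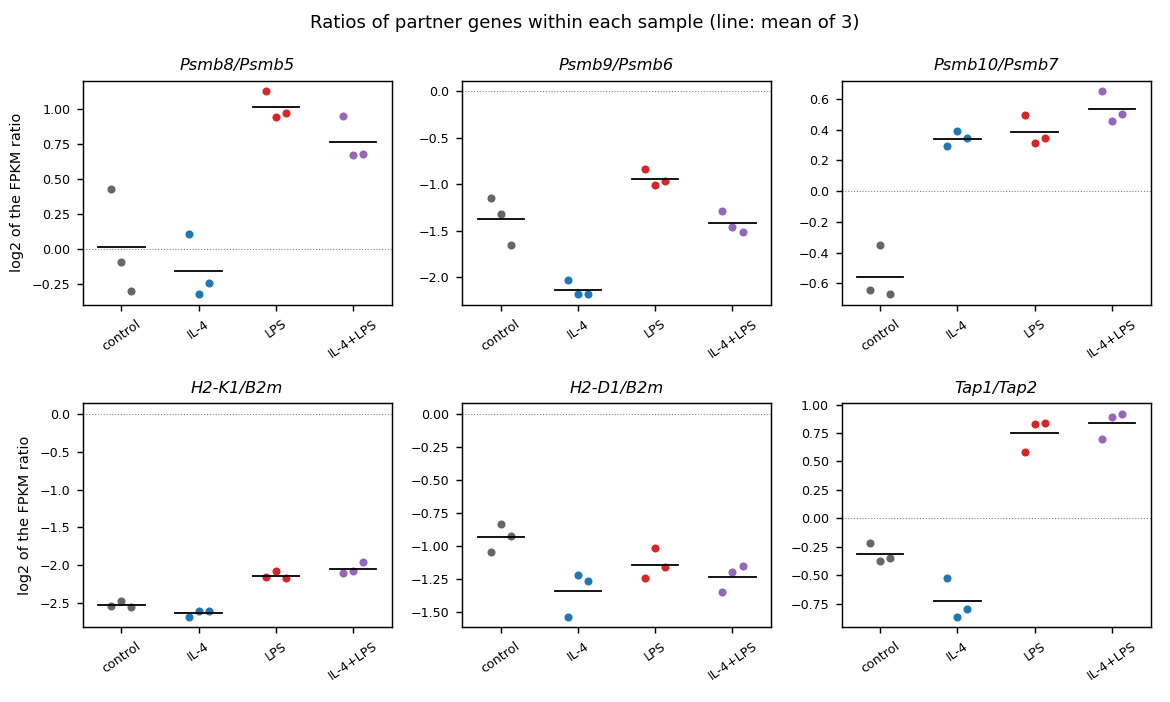
Log2 of the FPKM ratio (y axis, own scale per panel) of 6 pairs of genes within each of the 12 samples, by group (x axis), with 1 point per sample, a line at the mean of 3 and a dotted line at equal FPKM. The Tap1 to Tap2 ratio is below 0 in the 6 samples without LPS and above 0 in the 6 with it, and the Psmb10 to Psmb7 ratio is below 0 in control samples only.

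Nlrc5 was the least abundant of the 10 genes, ranking 8388 of 11191 rows. It stood at 3.55, 4.22 and 2.77 FPKM in control and at 2.25, 1.64 and 1.76 FPKM in IL-4 samples. It stood at 12.2, 15.0 and 15.7 FPKM in LPS and at 14.2, 16.8 and 15.7 FPKM in IL-4+LPS samples. Every IL-4 sample was below every control sample, and samples with LPS lay above all others and overlapped each other. Nlrc5 fell with IL-4 by 0.64 ± 0.14 on the log2 scale (adjusted p = 0.00461, limma; 0.535 of the control mean in FPKM), a call that held in all 22 alternatives. It rose with LPS by 1.77 ± 0.14 (adjusted p = 1.07e-06, limma, 4.07-fold) and by 2.53 ± 0.14 after IL-4 (adjusted p = 1.05e-07, limma, 8.28-fold). The interaction was 0.76 ± 0.20 (adjusted p = 0.0367, limma), a call lost in 11 of 20 alternatives (adjusted p from 0.0213 to 0.0923), among them quantile normalization and leaving out any of 9 samples, all but control replicate 3 and replicate 1 of IL-4 and of IL-4+LPS. IL-4+LPS minus LPS was 0.12 (95% interval -0.19 to 0.42; adjusted p = 0.564, limma). The pseudocount of 1 understates the change of a gene at this level.

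Among genes listed as regulators of class I transcription, more were called higher than lower with LPS. Whether they act on these genes in these cells was not tested. Of 23 tested regulators, 14 were called higher and 7 lower with LPS (median 0.60 beside -0.44 over all rows), and 14 higher and 6 lower with LPS after IL-4. On the FPKM as given, the shares over all rows were 16.9% higher and 57.7% lower with LPS, and 15% and 57.9% after IL-4. Median scaling gave 16 regulators higher and 4 lower with LPS, and 17 and 3 after IL-4. With that scaling, 3130 of 11191 rows were higher and 4218 lower with LPS, and 2863 and 3759 after IL-4. With IL-4 alone 5 were higher and 6 lower, beside 16% and 21% of all rows. Irf1, an interferon response factor that binds class I promoters, stood at 43.8, 45.3 and 30.0 FPKM in control, 56.9, 58.4 and 50.5 with IL-4, 541, 456 and 425 with LPS and 890.2, 799 and 776 FPKM with both. Its 4 groups did not overlap, and it was called higher with LPS (3.56, adjusted p = 1.54e-08, limma), with IL-4 (0.49, adjusted p = 0.0262, limma) and in IL-4+LPS over LPS (0.80, adjusted p = 0.00235, limma). Irf9 and Stat2, which act together in the type I interferon response, rose with LPS, Irf9 by 0.72 (adjusted p = 0.000402, limma) and Stat2 by 2.64 (adjusted p = 6.85e-08, limma). With IL-4 alone Irf9 fell by 1.01 on the log2 scale (adjusted p = 0.000173, limma), while the Stat2 difference was -0.22 (adjusted p = 0.246, limma). Irf9, like Rela and Ifnar2 on this list, thus shared with Nlrc5 and Tap1 a lower level after IL-4 alone and a higher level after LPS. The IL-4 call of Tap1 was lost in 12 of 22 alternatives.

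Both interferon transcripts on the list, Ifnb1 and Ifng, were below 1 FPKM in every sample without LPS. Ifnb1, which encodes interferon beta, was at most 0.147 FPKM without LPS, at 3.13, 2.14 and 2.05 FPKM in LPS and at 2.07, 10.6 and 10.6 FPKM in IL-4+LPS samples. It rose with LPS by 1.65 (adjusted p = 0.00398, limma) and by 2.90 after IL-4 (adjusted p = 9.92e-05, limma), and IL-4+LPS replicate 1 stood with the LPS samples. Ifng, which encodes interferon gamma, was listed at 0 in 9 of the 12 samples and at 0.167 FPKM at most. Socs1, an inhibitor of cytokine signalling, rose with IL-4 by 4.17 (adjusted p = 2.55e-06, limma) and with LPS by 4.98 (adjusted p = 1.36e-07, limma). Irf8, a myeloid interferon response factor, and Ciita, the class II relative of Nlrc5, were lower with LPS alone (-1.29, adjusted p = 2.35e-05, and -1.25, adjusted p = 3.69e-06, limma) and higher in IL-4+LPS over LPS (2.43, adjusted p = 1.57e-06, and 2.68, adjusted p = 1.08e-07, limma). The IL-4 difference of Ciita was 0.98 (adjusted p = 0.000119, limma), opposite in sign to the -0.64 of Nlrc5.

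Among other class I and class I-like heavy chains, 22 of 25 were tested. With LPS, 7 were called higher and 4 lower (median 0.21), after IL-4 17 were higher and 4 lower (median 0.58), and with IL-4 alone 1 was higher and 1 lower (median -0.14). Over all rows, 16.9% were higher and 57.7% lower with LPS (median -0.44), 15% and 57.9% after IL-4 (median -0.41), and 16% and 21% with IL-4 alone (median -0.05). With LPS alone, median scaling gave 15 higher and 3 lower, and quantile normalization 13 and 3. Of all 11191 rows, 3130 were then higher and 4218 lower with median scaling, and 2903 and 4326 with quantile normalization. H2-M2, a non-classical heavy chain, stood at 1.69 to 2.51 FPKM in control, 2.02 to 2.97 with IL-4, 35.9 to 59.8 with LPS and 165 to 189 FPKM with both. It rose with LPS by 3.87 (adjusted p = 3.54e-08, limma), by 5.64 after IL-4 (adjusted p = 3.4e-09, limma), and its interaction was 1.78 (adjusted p = 0.00208, limma). H2-T22 rose with LPS by 1.09 (adjusted p = 9.19e-05, limma), but its row spans nearly the same bases as that of H2-T9 (chromosome 17, 36038409 to 36042702 and to 36042692), so reads could be split between these rows. The chains lower with LPS were class I-like rather than peptide presenters for cytotoxic T cells: Mr1, which presents vitamin metabolites, fell by 1.47 on the log2 scale (adjusted p = 7.08e-05, limma), and Hfe, an iron regulator, fell by 1.41 (adjusted p = 1.47e-06, limma). With IL-4, H2-T23 rose by 0.76 (adjusted p = 0.000135, limma), and Fcgrt, the neonatal Fc receptor, fell by 1.30 (adjusted p = 3.09e-06, limma). The rows of H2-Q8 and H2-Q9 span nearly the same bases as those of H2-Q6 and H2-Q7, and H2-Q8 was at nearly 0 in some control, IL-4 and LPS samples and above 2 FPKM in others of the same group, so values of these rows are uncertain.

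Of 12 proteasome partners, 4 were called higher and 4 lower with LPS (median -0.10; 6 and 2 with median scaling, 3 and 4 with quantile normalization), and 6 higher and none lower with IL-4 (median 0.37). Over all rows, 16.9% were higher and 57.7% lower with LPS (median -0.44), and 16% and 21% with IL-4 (median -0.05). With LPS, median scaling gave 3130 of 11191 rows higher and 4218 lower, and quantile normalization 2903 and 4326. Psme1 and Psme2, the subunits of the PA28 activator, were called higher with LPS and with IL-4. Psme2 stood at 33.5, 44.5 and 40.4 FPKM in control, 61.7, 67.9 and 64.7 with IL-4, 133, 150.3 and 154 with LPS and 116, 173 and 165 FPKM with both. Psme2 rose with LPS by 1.87 (adjusted p = 1.24e-06, limma) and with IL-4 by 0.71 (adjusted p = 0.00397, limma), and Psme1 rose by 0.63 (adjusted p = 2.72e-05, limma) and 0.34 (adjusted p = 0.00582, limma). The assembly chaperones Psmg1 and Psmg2 fell with LPS by 0.86 and by 0.96 on the log2 scale (adjusted p = 0.000319 and 0.000127, limma).

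Of 10 genes of peptide trimming and loading, 3 were called higher and 3 lower with LPS (median 0.03; 5 and 0 with median scaling, 4 and 3 with quantile normalization), and 4 higher and 1 lower with IL-4 (median 0.31), beside the same shares and medians over all rows as for the proteasome partners. Tapbpl, a tapasin relative that edits peptides, rose with LPS by 0.91 (adjusted p = 7.13e-05, limma), and its IL-4 difference was 0.24 (adjusted p = 0.165, limma). The loading complex chaperones Calr and Pdia3 rose with IL-4, by 0.84 (adjusted p = 0.000936, limma) and 0.67 (adjusted p = 5.4e-05, limma). Their LPS differences were -0.33 (adjusted p = 0.0498, limma) and -0.39 (adjusted p = 0.000515, limma), and 0.08 and 0.02, not called, with median scaling. Blmh, a cytosolic peptidase, rose with LPS by 0.40 (adjusted p = 0.00421, limma) and fell with IL-4 by 0.62 (adjusted p = 0.000953, limma).

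**Figure D4:**
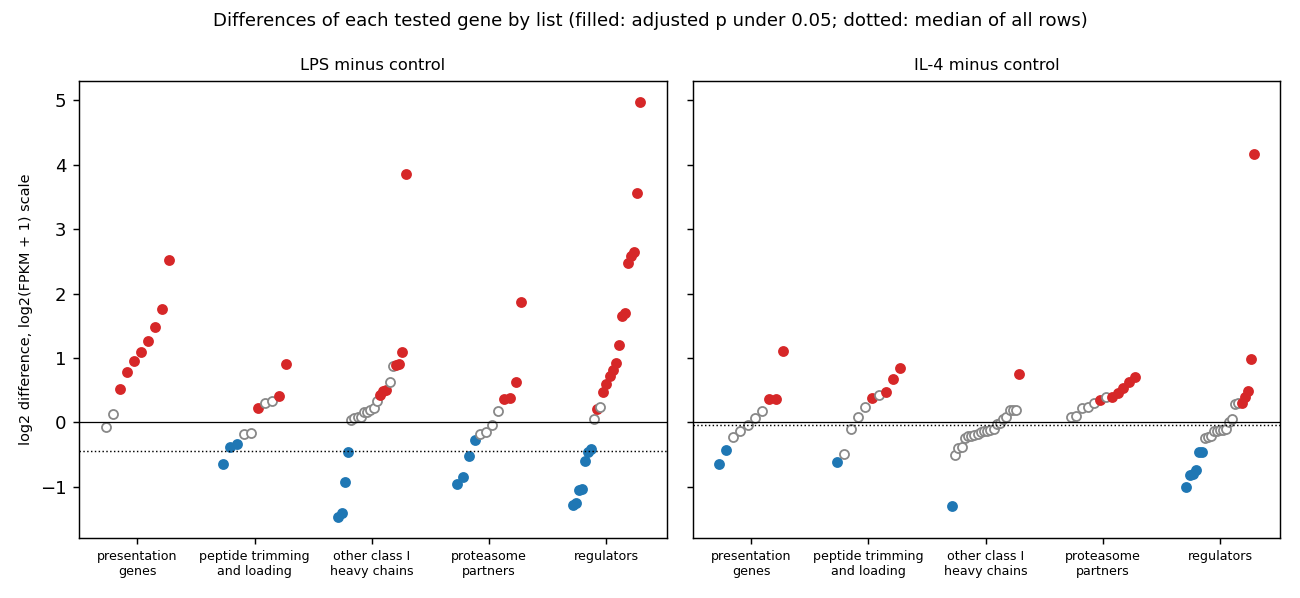
Log2 differences (y axis, log2(FPKM + 1) scale) of each tested gene in the 10 presentation genes and 4 related lists (x axis) for LPS minus control and IL-4 minus control, filled red where called higher, filled blue where called lower and open where not called, with a dotted line at the median of all rows. With LPS 8 of the 10 presentation genes are filled red (10 with median scaling, 7 with quantile normalization), and with IL-4 3 are red and 2 blue.

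Across the 12 samples the 10 genes fell into patterns of different likeness, given as Pearson r of log2(FPKM + 1) with no p, since the samples share the same 4 treatments. Nlrc5 was most like Tap1 among the 10 genes (r = 0.993) and least like B2m (r = 0.332). Tap1 and Tap2 had r = 0.993, Tapbp and Psmb8 r = 0.990, Tap1 and its neighbour Psmb9 r = 0.981, and Psmb10 and H2-D1 r = -0.069. H2-K1 had r = 0.696 with H2-D1 and 0.788 with B2m. Outside the 10 genes, among 7216 rows with a mean of at least 5 FPKM, the row most like each was 1110018G07Rik for Tap1 (r = 0.998), Ptgs2 for Tap2 (0.996), Fam26f for Nlrc5 (0.995), Csrnp1 for Tapbp (0.995), Tarm1 for Psmb8 (0.990), Gnb4 for Psmb10 (0.989), Tnfsf15 for Psmb9 (0.986), H2-T24 for H2-K1 (0.971), H2-Q5 for H2-D1 (0.894) and Slamf9 for B2m (0.875).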

How the data were processed

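Poly-A RNA libraries that did not mark strand were sequenced by the authors as paired 100-base reads and mapped to mm10. The submitters' processing notes name TopHat2 2.0.7 and Cufflinks 2.0.2, and the gene annotation was not given in the sources used here. The deposited FPKM values (1 table per sample, replicates kept apart) are relative to the mapped fragments of a sample, and a few very abundant genes can therefore lower all the rest. Fragment counts were not in the files used here, so depth was read only as a relative value from the steps between low FPKM values, and no count test or counting interval was used.

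Rows with at least 1 FPKM in at least 1 of 12 samples were transformed to log2(FPKM + 1) and fitted by group means with limma 3.58.1 in R 4.3.3 (eBayes with an intensity trend). Each contrast had its own Benjamini-Hochberg adjustment over 11191 rows. Ratios of 6 gene pairs were tested by exact permutation of the second treatment within strata of the first, two-sided, adjusted over 12 tests. Loci came from the files, with 1 added to the start. GENCODE vM21 gave exon overlaps and 50-base words, and RefSeq the promoter windows. Figures used matplotlib 3.10.9. All 10 genes were named, with up to 2 called genes per direction of each related list by size, a few fixed regulators, and the row most like each gene. A listed regulator and a searched motif are not reported here. The genes and lists were chosen with earlier results of these data known. Alternatives were another pseudocount, filters, quantile normalization, median scaling, no trend, only the compared groups, a Tukey test, a replicate block, replicates 2 and 3 only, and each sample left out in turn.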

Additional observations from a re-analysis of the deposited data

Results flagged for a closer look

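For Nlrc5 and Psmb10 the LPS difference itself differed between cells with and without IL-4, by limma's test of the interaction on the log2(FPKM + 1) scale. The Nlrc5 value was 0.76 (adjusted p = 0.0367), with an LPS difference of 1.77 without IL-4 and 2.53 after it, and the call was lost in 11 of 20 alternatives (adjusted p from 0.0213 to 0.0923). The Psmb10 value was -0.79 (adjusted p = 0.0024), with an LPS difference of 1.10 without IL-4 and 0.31 after it, and it was called in all 20 alternatives (adjusted p from 0.000692 to 0.00943). In both genes the LPS difference was positive in cells with and without IL-4.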

How the results depend on the processing

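FPKM without counts, 3 samples a group and a global shift with LPS limit these results. The pseudocount of 0.1 and the filter that asked for 1 FPKM in 3 samples changed no call of the 10 genes. Genes called lower with IL-4 numbered 1 in place of 2 with no filter, with median scaling, with no intensity trend and with the Tukey test, and 1 to 3 with a sample left out. Genes called higher in IL-4+LPS over LPS numbered 3, but 0 with quantile normalization, 1 with median scaling, with no trend and with only the compared groups, and 1 to 3 with a sample left out. Positive interactions numbered 1, but 0 with no filter or quantile normalization, 5 with replicates 2 and 3 only, and 0 to 3 with a sample left out. Replicates 2 and 3 only gave 7 genes higher in IL-4+LPS over LPS, where 2351 of 11191 rows were higher. The cause of these changes was not tested.

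Some signs turned. The LPS difference of H2-D1 was 0.34 with median scaling (adjusted p = 0.0212) and ran from -0.16 to 0.024 with a sample left out. The IL-4 difference of H2-K1 was -0.0042 with quantile normalization and ran from -0.050 to 0.22 with a sample left out, and that of B2m was -0.050 with quantile normalization. With a sample left out, the IL-4 difference of Tap2 ran from -0.13 to 0.037 and the interaction of B2m from -0.061 to 0.24. The IL-4 effect on the H2-K1 to B2m ratio was 0.0055 with replicates 2 and 3 only and ran from -0.034 to 0.0025 with a sample left out, and that on the Psmb8 to Psmb5 ratio ran from -0.29 to -0.10, where the lowest, without control replicate 3, had an exact permutation p of 0.045. With replicates 2 and 3 only, the LPS effect on the Tap1 to Tap2 ratio kept its sign at 1.47, and its exact permutation p of 0.0556 is the smallest that 2 samples a group allow, so no ratio could pass there.

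Samples with the same number had deviations from their group means that correlated at 0.124 on average (18 pairs, all above 0, 0.0024 to 0.386, and 11 over 0.1). On the first component of these deviations the replicate 1 samples lay at 15.56 to 33.09 and the other 8 below 0, and 9 of 12 samples correlated best with their own number, a hint from the data and not the design. Since no label ties the numbers to an animal or experiment and not every pair passed 0.1, they were not taken as pairs. With the replicate number as a block, 7 genes were called higher in IL-4+LPS over LPS, adding H2-K1 (adjusted p = 0.00235, limma), B2m (0.00706), H2-D1 (0.026) and Tapbp (0.0344), and 2 had a positive interaction, adding H2-D1 (0.41, adjusted p = 0.00886, limma). With IL-4 alone H2-D1 was then called lower (-0.23, adjusted p = 0.00961, limma) and B2m higher (0.18, adjusted p = 0.0407, limma), and B2m was called higher in IL-4+LPS over IL-4 (adjusted p = 0.00871, limma). No call of the 10 genes was lost.

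Over all rows, higher and lower calls in LPS minus control numbered 1887 and 6462, against 3130 and 4218 with median scaling and 2903 and 4326 with quantile normalization. In IL-4+LPS minus IL-4 they numbered 1682 and 6474, against 2863 and 3759, and 2461 and 4173. Higher calls in IL-4+LPS minus LPS numbered 1682, against 2287 with the block and 2351 with replicates 2 and 3 only. Lower calls there numbered 1771, against 2667 and 2901. Interaction calls numbered 512 and 518, against 1145 and 1095 with the block, 1481 and 1386 with replicates 2 and 3 only, 311 and 334 without LPS replicate 3, and 325 and 334 without IL-4 replicate 3.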
